A study of Homo sapiens with 8 samples.

Results

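This section describes the genes of glucose uptake, glycolysis and lactate export in tumours grown from CDK4 knockout and CDK4 wild-type breast cancer cells. The members were taken from a list of 35 genes written by pathway step, covering glucose transporters, glycolytic enzymes, the PFKFB regulators, lactate and pyruvate handling, and glycogen. Counts were available for 34 of them among 13546 genes, and the lactate transporter gene SLC16A1 was not analysed here. The tumours grew in nude mice, a host that lacks mature T cells, from MDA-MB-231, a cell line of human triple-negative breast cancer. The cells were labelled CDK4KO (4 libraries) or CDK4WT (4 libraries), and all came from the same line. Neither the way CDK4 was disrupted, nor whether the knockout was 1 clone, nor whether each tumour came from its own mouse is given in the sources used here, so the p-values rest on the spread among these libraries, which may be technical in part.

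Glycolysis splits glucose into pyruvate in the cytosol. GLUT transporters bring glucose in, hexokinase traps it by phosphorylation, phosphofructokinase makes the committed step, and the enzymes from GAPDH to pyruvate kinase return ATP. Tumour cells often turn the pyruvate into lactate with lactate dehydrogenase and export it, and the transcription factor HIF, which is stabilised when oxygen is low, raises many genes of this route. Several steps have isoforms that differ in regulation, so a step can keep its main enzyme while an inducible isoform moves.

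Libraries held 27840883 to 33617977 counts. All 34 members were above 1 CPM (counts scaled to library size, with edgeR's TMM composition correction) in every library, with a lowest value of 3.59 CPM. CDK4 itself stood at 122 CPM ± 9.66 in CDK4KO and 113 CPM ± 4.04 in CDK4WT (SD, n = 4 each), which checks neither the knockout nor the labels while the kind of disruption is not given. The MDA-MB-231 label was set against 10 markers of these cells, such as VIM, CD44 and EGFR, all of them measured, which summed to 12815 to 17861 CPM in CDK4KO and 15232 to 17544 CPM in CDK4WT. Of 3 receptor genes that are low in triple-negative cells, ESR1 and PGR were not analysed here. ERBB2 averaged 103 CPM in CDK4KO and 98.7 CPM in CDK4WT, and with no receptor-positive sample beside it this level does not settle that part of the label. CDK4KO replicate 1 stood apart from the other libraries on the second principal component, at -31.3 against -1.49 to 9.54, and CDK4KO replicates 1 and 4 had the lowest mean correlation with their own group (0.985 and 0.986, against 0.988 to 0.995 in the others).

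Glucose pathway genes had lower values in CDK4KO tumours at uptake, at hexokinase, at the PFKFB regulators, at PGK1 and at PDK1. Several abundant enzymes of the lower pathway had close means in both genotypes. For ENO1 and PKM among them, CDK4KO replicate 1 was the highest library and the other CDK4KO libraries lay below all CDK4WT libraries. Of the 34 members, 29 had a negative log2 fold change (CDK4KO minus CDK4WT) where 48.8% of all genes did, and the median was -0.17 against 0.004 over all genes. The members and the other gene lists below were chosen with earlier results of these data known, so their counts describe the lists and are not independent of the data. At an unadjusted p of 0.05 in edgeR's quasi-likelihood test, 15 of the 34 members (44.1%) were lower and 1 was higher in CDK4KO, where 6.33% of all genes were lower and 6.64% higher. In 8 members every CDK4KO library lay below every CDK4WT library, which held for 3.81% of all genes, and in 0 members above every one, which held for 3.87%. With p adjusted over all 13546 genes, 0 members passed edgeR's test at 0.05 (0.0591% of all genes did), while DESeq2 called 9 members lower (1.07% of all genes) and limma voom with library quality weights called 5 (0.901%). Without CDK4KO replicate 1, edgeR called 5 members, PFKFB3, PFKFB4, HK2 and PGK1 lower and TIGAR higher (1.35% of all genes in either direction), and 18 members lay wholly below CDK4WT (8.05% of all genes). Without CDK4WT replicate 1 that last number was 13 (5.65% of all genes), and without CDK4KO replicates 1 and 4 together it was 19 (15.2% of all genes).

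The count of members lower at an unadjusted p of 0.05 was above the share over all genes whichever library was left out. It was 22 without CDK4KO replicate 1, against 8.54% of all genes, and 14, 14 and 13 without CDK4KO replicates 2, 3 and 4, against 6.11%, 5.02% and 6.81%. It was 17, 14, 14 and 13 without CDK4WT replicates 1 to 4, against 5.06%, 5.63%, 4.61% and 5.87% of all genes. Without CDK4KO replicates 1 and 4 together it was 18, against 9.59%. The adjusted test called 0 members without any single library other than CDK4KO replicate 1, where it called 0% to 0.125% of all genes (0.00738%, a single gene, in 4 of these fits).

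**Figure D1:**
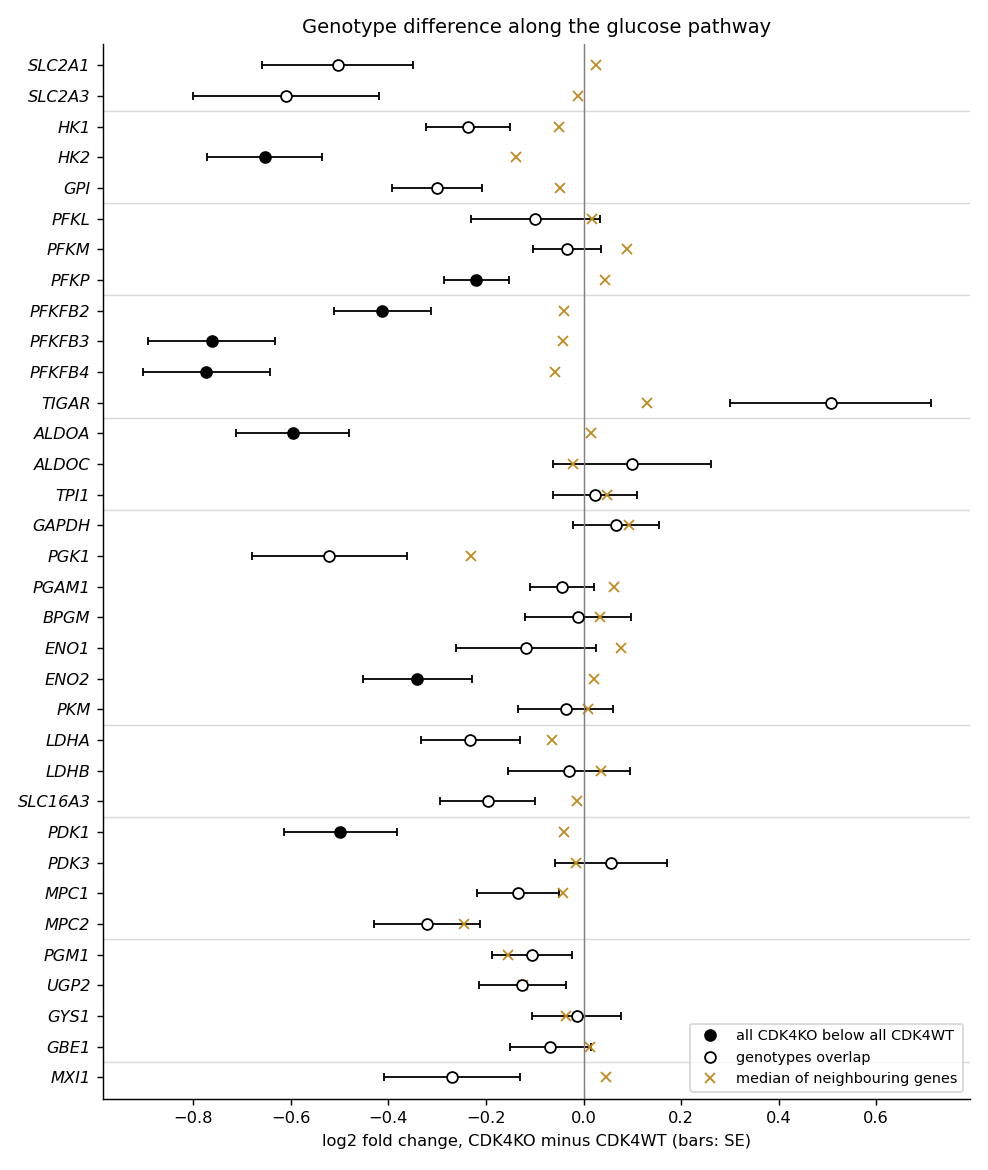
Each circle is the log2 fold change (CDK4KO minus CDK4WT) of 1 member with its SE, from uptake at the top to the regulator MXI1 at the bottom, with grey lines between steps. Filled circles mark the 8 members whose CDK4KO libraries all lay below the CDK4WT libraries, and crosses give the median of up to 20 neighbouring genes on the chromosome; PFKFB3 and PFKFB4 stand farthest to the left and TIGAR to the right.

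At the uptake step, both glucose transporters had lower means in CDK4KO with a small overlap. SLC2A1, which encodes the widespread transporter GLUT1, had 568, 553, 453 and 376 CPM in CDK4KO replicates 1 to 4, against 551, 635, 733 and 846 CPM in CDK4WT replicates 1 to 4. CDK4KO replicates 1 and 2 thus exceeded the lowest CDK4WT library. Its log2 fold change was -0.50 ± 0.15 (SE; edgeR adjusted p = 0.227). SLC2A3, which encodes the high-affinity transporter GLUT3, had 169, 208, 169 and 193 CPM in CDK4KO, against 199, 236, 297 and 395 CPM in CDK4WT. Here CDK4KO replicate 2 exceeded CDK4WT replicate 1, and CDK4WT replicate 4 was the highest library. SLC2A3 stood at -0.61 ± 0.19 (edgeR adjusted p = 0.238), and DESeq2 called both transporters lower (adjusted p = 0.0383 for SLC2A1 and 0.0265 for SLC2A3).

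At the trapping step the inducible hexokinase separated the genotypes. HK2 had 243, 252, 232 and 191 CPM in CDK4KO, against 323, 318, 358 and 446 CPM in CDK4WT. No CDK4KO library reached the lowest CDK4WT library. The log2 fold change of -0.65 ± 0.12 is a change of -36.4%, with an edgeR adjusted p of 0.0749 and a DESeq2 adjusted p of 5.09e-05. HK1, the constitutive hexokinase, had 216, 198, 213 and 181 CPM in CDK4KO, against 205, 239, 241 and 267 CPM in CDK4WT (-0.24 ± 0.09, edgeR adjusted p = 0.282). HK1 overlapped between the genotypes, and its unadjusted p passed 0.05 in 6 of 8 fits that each left out 1 library. GPI, which turns glucose 6-phosphate into fructose 6-phosphate, averaged 332 CPM ± 27.1 in CDK4KO and 408 CPM ± 50.6 in CDK4WT (-0.30 ± 0.09, edgeR adjusted p = 0.224), and 1 CDK4KO library, replicate 3, exceeded the lowest CDK4WT library.

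At the committed step the 3 phosphofructokinase genes differed in how the libraries fell. PFKP, the platelet-type isoform and the most abundant of the 3 per kb of exon, had 251, 274, 259 and 246 CPM in CDK4KO, against 282, 280, 315 and 322 CPM in CDK4WT. The groups did not overlap, though the difference was small (-0.22 ± 0.07, edgeR adjusted p = 0.224). PFKL, the liver-type isoform, had 277 CPM in CDK4KO replicate 1 and 183 to 195 CPM in the other CDK4KO libraries, against 203 to 257 CPM in CDK4WT (-0.10 ± 0.13). Without that library PFKL stood at -0.26, with an edgeR adjusted p of 0.133. PFKM, the muscle-type isoform, had 67.1 to 81.9 CPM in CDK4KO and 73.7 to 81.8 CPM in CDK4WT (-0.03 ± 0.07), and its 95% interval ran from -0.19 to 0.12.

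The regulators that set the level of the phosphofructokinase activator fructose 2,6-bisphosphate included PFKFB4 and PFKFB3, with the lowest log2 fold changes of the 34 members. PFKFB3, whose kinase activity far exceeds its phosphatase activity, had 216, 230, 210 and 181 CPM in CDK4KO, against 284, 325, 364 and 449 CPM in CDK4WT. PFKFB4, a bifunctional isoform found in many tumours, had 82.1, 64.6, 64.1 and 70.6 CPM in CDK4KO, against 98.5, 108, 124 and 151 CPM in CDK4WT. In both genes all CDK4KO libraries lay below all CDK4WT libraries, and CDK4WT replicate 4 was the highest of the 8. The log2 fold changes were -0.76 ± 0.13 for PFKFB3 and -0.77 ± 0.13 for PFKFB4, changes of -41.1% and -41.5%, each with an edgeR adjusted p of 0.0634. Across the fits without 1 library they ranged from -0.86 to -0.63 for PFKFB3 and from -0.86 to -0.65 for PFKFB4. PFKFB2, the isoform known from heart, was scarce, with 7.97, 8.54, 6.77 and 7.62 CPM in CDK4KO, against 9.87, 11.1, 10.1 and 10.1 CPM in CDK4WT (-0.41 ± 0.10, edgeR adjusted p = 0.143). It too separated completely, so each measured PFKFB gene did.

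TIGAR, a p53-inducible phosphatase that degrades fructose 2,6-bisphosphate, had a higher mean in CDK4KO. It had 3.59, 6.17, 7.66 and 6.68 CPM in CDK4KO, against 4.48, 4.6, 4.27 and 3.61 CPM in CDK4WT (0.51 ± 0.21, edgeR adjusted p = 0.328). CDK4KO replicates 2 to 4 were above all CDK4WT libraries and CDK4KO replicate 1 was below all of them. Without CDK4KO replicate 1 the log2 fold change was 0.69 with an edgeR adjusted p of 0.0428, and TIGAR passed an unadjusted p of 0.05 in 3 of 8 fits without 1 library. Its 20 nearest neighbours on chromosome 12 had a median of 0.13. Overlaps with exons of other annotated genes add up to 45.6% of its exon bases, with a base in more than 1 of them counted for each.

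**Figure D2:**
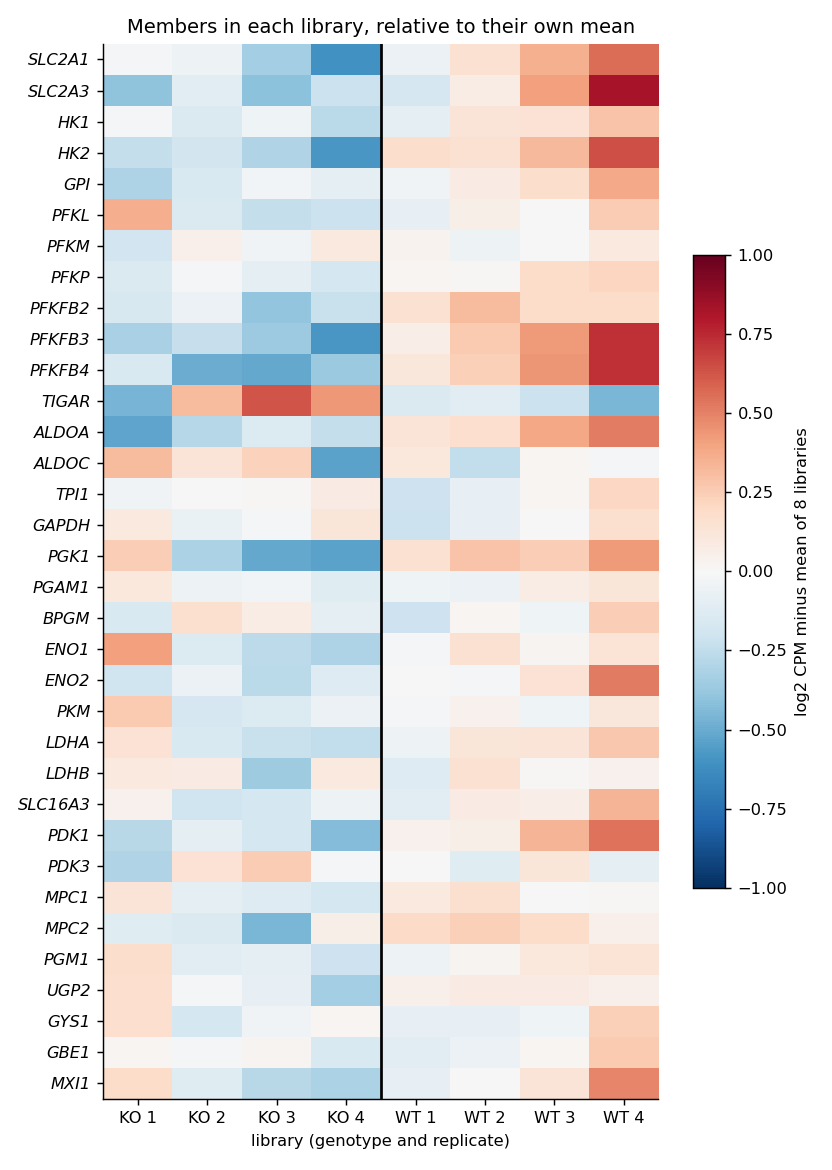
Rows are the 34 members in pathway order and columns the 4 CDK4KO and 4 CDK4WT libraries; colour gives log2 CPM minus the gene's mean over the 8 libraries, with the scale held between -1 and 1. CDK4WT replicate 4 was the highest CDK4WT library in 25 members, and CDK4KO replicate 1 was the highest CDK4KO library in 17, among them PFKL, PGK1, ENO1 and PKM.

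At aldolase and triose phosphate isomerase the pattern split by gene. ALDOA, the main aldolase of most tissues, had 8.34, 9.84, 10.9 and 10.2 CPM in CDK4KO, against 13.1, 13.5, 15.7 and 17.1 CPM in CDK4WT (-0.60 ± 0.12, edgeR adjusted p = 0.0786). The libraries separated, but ALDOA shares exon bases with 2 other annotated genes, 1 of them on the same strand. These overlaps add up to 55.6% of its exon bases, with a base in both genes counted for each. The counts may thus cover a part of its reads, and its level is uncertain. ALDOC, the brain-type aldolase, had 19.6, 17.2, 18.5 and 10.9 CPM in CDK4KO, against 13.3 to 16.9 CPM in CDK4WT, and overlapped (0.10 ± 0.16). TPI1, which interconverts the 2 triose phosphates, averaged 721 CPM ± 23.9 in CDK4KO and 710 CPM ± 87.7 in CDK4WT (0.02 ± 0.09, 95% interval -0.16 to 0.21).

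In the phase that returns ATP, 2 of 7 genes had an unadjusted p under 0.05. PGK1, phosphoglycerate kinase, had 1306 CPM in CDK4KO replicate 1 and 885, 772 and 758 CPM in CDK4KO replicates 2 to 4, against 1221, 1342, 1301 and 1477 CPM in CDK4WT. Replicate 1 reached the CDK4WT range and the other 3 CDK4KO libraries stayed below it. The log2 fold change was -0.52 ± 0.16 (edgeR adjusted p = 0.224), and -0.73 without CDK4KO replicate 1 (edgeR adjusted p = 0.0155). PGK1 lies on chromosome X among 20 neighbours with a median of -0.23, of which 19 were negative. ENO2, the enolase named for neurons, had 356, 391, 338 and 373 CPM in CDK4KO, against 408, 403, 451 and 584 CPM in CDK4WT (-0.34 ± 0.11, edgeR adjusted p = 0.247) and did not overlap.

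The other 5 genes of that phase overlapped between the genotypes. GAPDH, which makes the first NADH, had 3758, 3360, 3468 and 3820 CPM in CDK4KO, against 3028, 3306, 3500 and 3923 CPM in CDK4WT (0.07 ± 0.09, 95% interval -0.13 to 0.26). PKM, the pyruvate kinase of most adult tissues and tumours, had 2976 CPM in CDK4KO replicate 1 and 2210 to 2382 CPM in the other CDK4KO libraries, against 2402 to 2678 CPM in CDK4WT (-0.04 ± 0.10). ENO1, the main enolase, had 3289 CPM in CDK4KO replicate 1 and 2000 to 2247 CPM in the other 3, against 2441 to 2741 CPM in CDK4WT (-0.12 ± 0.14). For PKM and ENO1 the CDK4KO group thus holds the highest library of all 8 and also the 3 lowest. Without CDK4KO replicate 1, ENO1 stood at -0.31 (edgeR adjusted p = 0.0712) and PKM at -0.14 (0.307). PGAM1, phosphoglycerate mutase, and BPGM, which makes 2,3-bisphosphoglycerate, stood at -0.04 ± 0.07 and -0.01 ± 0.11. The annotation names 62 pseudogenes after GAPDH, 13 after PGAM1, 5 after PKM, 4 after ENO1 and, at the next step, 6 after LDHA, so a share of their reads may have been placed elsewhere.

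**Figure D3:**
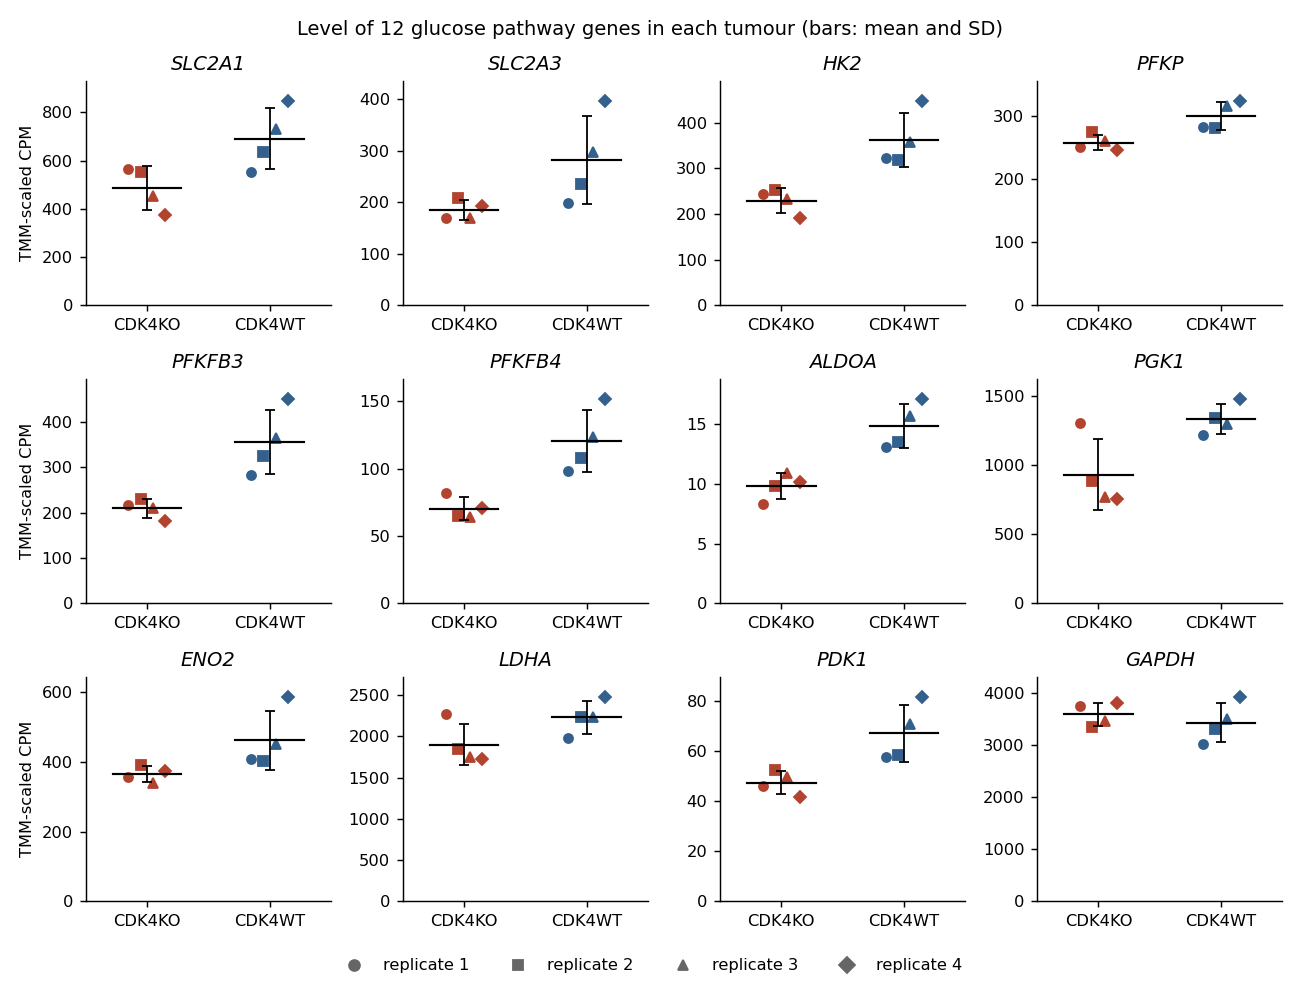
Each point is the TMM-scaled CPM of 1 library for 12 members, CDK4KO on the left and CDK4WT on the right of each panel, with shapes for replicates and bars for the mean and SD (n = 4 each). HK2, PFKP, PFKFB3, PFKFB4, ALDOA, ENO2 and PDK1 show no overlap, PGK1 and LDHA overlap through CDK4KO replicate 1, and GAPDH overlaps throughout.

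At lactate production and export the differences were small. LDHA, the lactate dehydrogenase subunit that favours lactate formation, had 2269, 1846, 1754 and 1727 CPM in CDK4KO, against 1981, 2230, 2237 and 2473 CPM in CDK4WT (-0.23 ± 0.10, edgeR adjusted p = 0.366). It kept an unadjusted p under 0.05 in 2 of 8 fits without 1 library. LDHB, the subunit that prefers to turn lactate into pyruvate, had 6.02 to 8.24 CPM in CDK4KO and 7.05 to 8.56 CPM in CDK4WT (-0.03 ± 0.12), with 33.4% of its exon bases in another annotated gene. SLC16A3, which encodes the lactate exporter MCT4, had 685, 578, 589 and 639 CPM in CDK4KO, against 615, 702, 696 and 842 CPM in CDK4WT (-0.20 ± 0.10, edgeR adjusted p = 0.422). The range of SLC16A3 overlapped in both directions, and its 95% interval of -0.41 to 0.02 includes a reduction of the size seen in LDHA.

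At the entry of pyruvate into mitochondria, a kinase isoform set the genotypes apart. PDK1, which inhibits pyruvate dehydrogenase by phosphorylation, had 46.2, 52.4, 49.7 and 41.5 CPM in CDK4KO, against 57.6, 58.4, 70.8 and 81.4 CPM in CDK4WT (-0.50 ± 0.12, edgeR adjusted p = 0.133, DESeq2 adjusted p = 0.00721). The groups did not overlap. PDK3, another kinase of the same enzyme, had 15.8 to 23.2 CPM in CDK4KO and 17.9 to 21.2 CPM in CDK4WT (0.06 ± 0.11). MPC1 and MPC2 form the mitochondrial pyruvate carrier. MPC2 averaged 11.7 CPM ± 1.68 in CDK4KO and 14.6 CPM ± 0.793 in CDK4WT (-0.32 ± 0.11, edgeR adjusted p = 0.265), and its 20 neighbours on chromosome 1, all negative, had a median of -0.25. For MPC2, 22.5% of the exon bases lie in exons of another annotated gene on the opposite strand. MPC1 stood at -0.13 ± 0.08 and overlapped.

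None of the 4 glycogen genes passed an unadjusted p of 0.05 in edgeR's test. PGM1, which links glucose 6-phosphate and glucose 1-phosphate, had a log2 fold change of -0.11 ± 0.08, and UGP2, which makes UDP-glucose, -0.13 ± 0.09. GYS1, glycogen synthase, and GBE1, the branching enzyme, stood at -0.01 ± 0.09 and -0.07 ± 0.08, with 95% intervals of -0.22 to 0.19 and -0.25 to 0.11. The medians of the chromosomal neighbours of PGM1 and UGP2, -0.16 and -0.12, were about as low as the genes themselves. MXI1, a MYC antagonist of the MAX network, had 99.3, 80.1, 71.7 and 69.9 CPM in CDK4KO, against 82.4, 87.5, 95.2 and 122 CPM in CDK4WT (-0.27 ± 0.14, edgeR adjusted p = 0.448).

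Whether an isoform moved differently from its partner was tested on the log2 ratio of the pair in each library, for 12 pairs, with an exact two-sided permutation test whose smallest p is 0.0286. HK2 over HK1 was 0.18 ± 0.12 in CDK4KO and 0.60 ± 0.14 in CDK4WT (log2 ratio, SD, n = 4 each; difference -0.41, exact permutation p = 0.0286, adjusted over the pairs 0.171). PDK1 over PDK3 was 1.25 ± 0.21 in CDK4KO and 1.79 ± 0.25 in CDK4WT (difference -0.53, exact permutation p = 0.0286, adjusted 0.171). In these 2 pairs the genotypes did not overlap, and no other pair separated. Neither passed after adjustment. With a smallest p of 0.0286 and 12 pairs, 2 pairs at that p cannot pass, so the adjusted value decides nothing about them. ALDOC over ALDOA differed by 0.66 and PFKP over PFKM by -0.18 (exact permutation p = 0.0571 each, adjusted 0.171), ALDOC over ALDOA with the limit on ALDOA counts given above. PFKFB3 over PFKFB2 and PFKFB4 over PFKFB2 differed by -0.33 and -0.35 (exact permutation p = 0.0857 each). PFKFB4 over PFKFB3 averaged -1.58 ± 0.24 in CDK4KO and -1.56 ± 0.03 in CDK4WT (difference -0.01, exact permutation p = 0.943). The difference was -0.21 without CDK4KO replicates 1 and 4, the libraries with the highest ratios. SLC2A3 over SLC2A1 (-0.06), PFKP over PFKL (-0.10), ENO2 over ENO1 (-0.18), LDHA over LDHB (-0.20) and MPC1 over MPC2 (0.19) had exact permutation p of 0.2 or more.

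**Figure D4:**
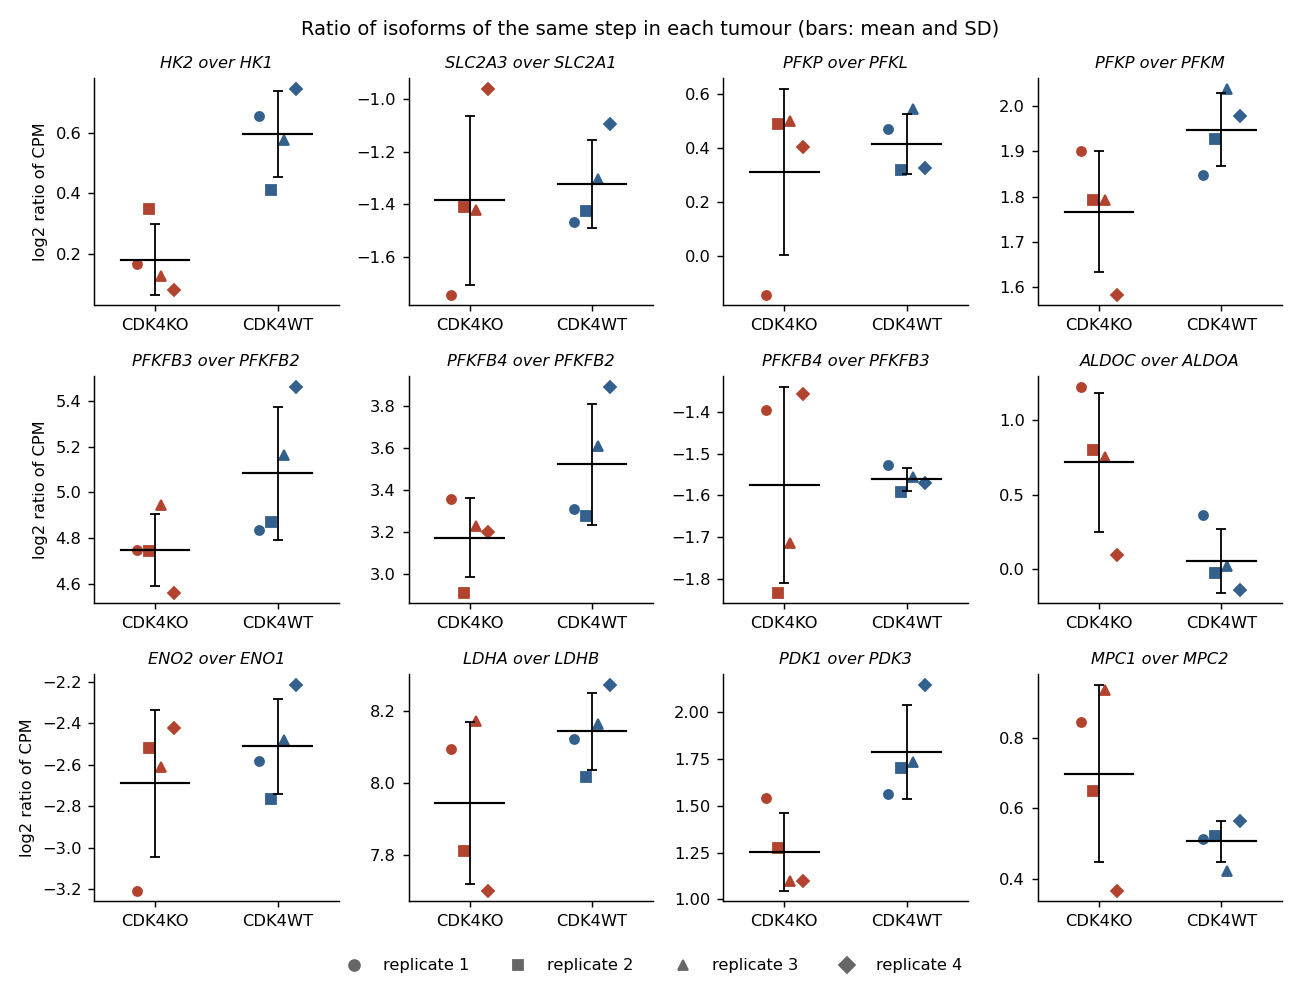
Each point is the log2 ratio of CPM of 2 isoforms of 1 step in 1 library, CDK4KO left and CDK4WT right, with shapes for replicates and bars for the mean and SD (n = 4 each). HK2 over HK1 and PDK1 over PDK3 show no overlap, and PFKFB4 over PFKFB3 has nearly the same mean in both genotypes.

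Levels between genes were compared as CPM per kb of annotated exon. GAPDH was the highest member, at 1208 CPM per kb in CDK4KO and 1154 in CDK4WT, followed by ENO1 (455 in CDK4KO, 494 in CDK4WT), LDHA (306 in CDK4KO, 359 in CDK4WT) and PKM (287 in CDK4KO, 294 in CDK4WT). The members that separated completely spanned 0.758 (PFKFB2) to 85.1 (ENO2) CPM per kb in CDK4KO. HK2 made up 54.1% ± 2.0 of the HK1 and HK2 total per kb in CDK4KO and 61.1% ± 2.33 in CDK4WT (SD, n = 4 each). PDK1 made up 44.3% ± 3.61 of the PDK1 and PDK3 total in CDK4KO and 53.5% ± 4.30 in CDK4WT. Exon lengths are those of all annotated transcripts merged, which understates a gene whose long transcripts are not used.

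**Figure D5:**
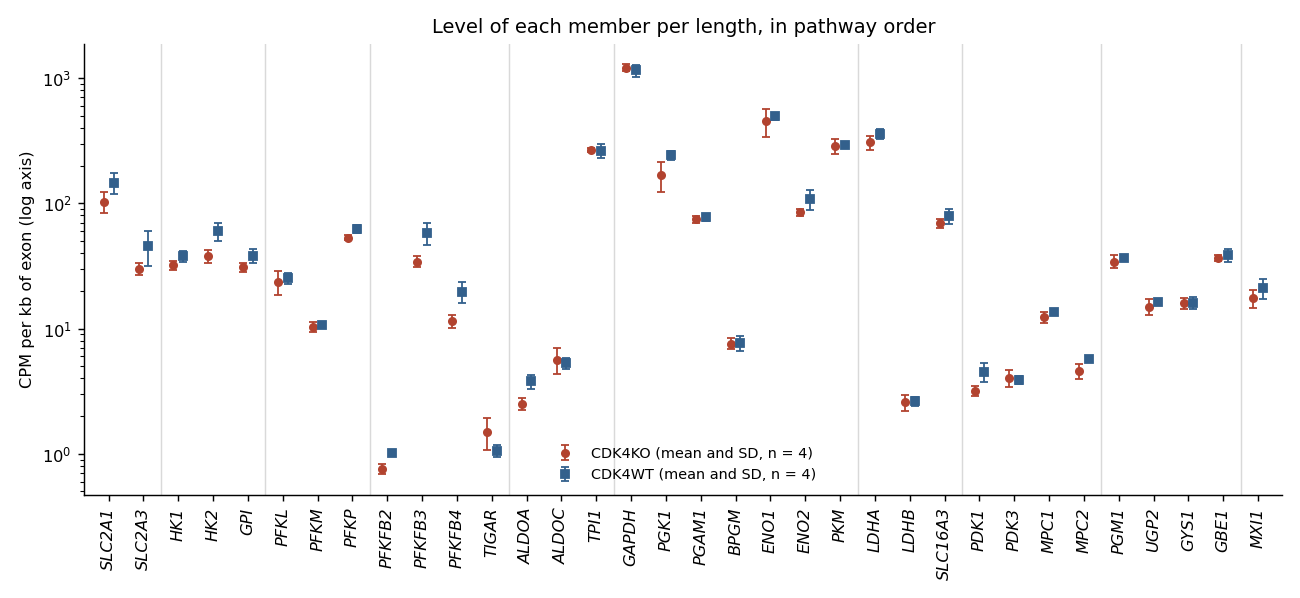
Each point is the mean CPM per kb of exon of 1 member on a log axis, with its SD (n = 4 each), CDK4KO to the left of CDK4WT within each gene and genes in pathway order. GAPDH, ENO1, LDHA and PKM form the top of the range and PFKFB2 and TIGAR the bottom.

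Genes of glucose metabolism outside the list were counted in 6 groups, and none of their 63 measured genes passed edgeR's adjusted test. Other glucose transport and hexokinase genes had 0 lower and 0 higher of 10 at an unadjusted p of 0.05. SLC37A4, ARRDC4 and ADPGK, with the smallest p, stood at -0.15 ± 0.07, -0.37 ± 0.17 and -0.11 ± 0.05. ADPGK had all CDK4KO libraries below all CDK4WT libraries, as 3.81% of all genes did. Among 4 other glycolytic isoforms, FBP1, the gluconeogenic fructose bisphosphatase, was lower at an unadjusted p of 0.05, with 3.95 CPM ± 0.858 in CDK4KO and 7.23 CPM ± 2.57 in CDK4WT (-0.87 ± 0.25). Among 14 genes of pyruvate dehydrogenase and lactate partners, PC, pyruvate carboxylase, was higher (0.33 ± 0.13) and none was lower. Of 8 pentose phosphate genes RPE was lower (-0.17 ± 0.06). At an unadjusted p of 0.05, 6.33% of all genes were lower and 6.64% higher, so 1 gene in a list this short says little about the list. The median log2 fold changes of these 4 groups lay between -0.04 and 0.03, close to the 0.004 of all genes.

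Of 15 measured glycogen turnover genes outside the list, 2 had all CDK4KO libraries below all CDK4WT libraries, as 3.81% of all genes did. PGM2, which belongs to the phosphoglucomutase family, had 27.6 CPM ± 0.779 in CDK4KO and 36.0 CPM ± 3.73 in CDK4WT (-0.39 ± 0.08, edgeR adjusted p = 0.104). PYGL, the liver-type glycogen phosphorylase, had 112 CPM ± 16.4 in CDK4KO and 148 CPM ± 17.2 in CDK4WT (-0.40 ± 0.11, edgeR adjusted p = 0.190), and these are the 2 that separated. PYGB, the brain-type phosphorylase, had 871 CPM ± 157 in CDK4KO and 639 CPM ± 79.9 in CDK4WT (0.45 ± 0.13, edgeR adjusted p = 0.205). Of 15 measured genes 3 were lower and 1 higher at an unadjusted p of 0.05, where 6.33% of all genes were lower and 6.64% higher, so the single higher gene is no more than the share over all genes. Their median was -0.06. Of 12 genes of side branches 1 was lower, where 6.33% of all genes were. This was GPD1, which makes glycerol 3-phosphate, at 0.703 CPM ± 0.294 in CDK4KO and 1.73 CPM ± 0.587 in CDK4WT (-1.29 ± 0.33, edgeR adjusted p = 0.163). GPD1 exceeded 1 CPM only in CDK4KO replicate 2 and CDK4WT replicates 1 to 3, the fewest libraries of any gene counted here.

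Hypoxia-response genes that are not members were also lower on average in CDK4KO. Of 27 measured, 27 had a negative log2 fold change, 22 were lower at an unadjusted p of 0.05 and the median was -0.37, where 48.8% of all genes were negative and 6.33% lower. The genes were listed with earlier results of these data known, so these counts are no independent support. None of the 27 passed edgeR's adjusted test. CA9, a carbonic anhydrase, stood at -1.26 ± 0.21 (edgeR adjusted p = 0.0648), HILPDA, a lipid droplet protein, at -0.80 ± 0.17, and INSIG2 at -0.45 ± 0.10. Their summed level was 4784 to 6461 CPM in CDK4KO and 6309 to 9106 CPM in CDK4WT, highest in CDK4WT replicate 4, the library that was also highest of all 8 in 21 members. The part of this response in the glucose gene values was not tested. Of 11 endothelial markers 9 were measured and summed to 402 to 468 CPM in CDK4KO and 340 to 381 CPM in CDK4WT. At an unadjusted p of 0.05, 4 were higher (PECAM1, ESAM, ROBO4 and MMRN2) and 0 lower, where 6.64% of all genes were higher and 6.33% lower. This list was made with earlier results of these data known, so the count is not independent of them. KDR, EGFL7, VWF and TEK stood at 0.04 ± 0.10, 0.08 ± 0.19, 0.13 ± 0.23 and 0.21 ± 0.41. ESAM (160 CPM in CDK4KO, 140 CPM in CDK4WT) and ROBO4 (159 CPM in CDK4KO, 110 CPM in CDK4WT) make up most of the endothelial sum. TIE1, the 1 marker with a negative log2 fold change, averaged 76.6 CPM in CDK4KO and 87.1 CPM in CDK4WT (-0.19 ± 0.10). Of 14 skeletal muscle markers, a tissue rich in glycolytic enzymes, 4 were measured (30.2 to 38.1 CPM in CDK4KO, 35 to 59.1 CPM in CDK4WT). All 4 were negative with a median of -0.77, and 2 were lower at an unadjusted p of 0.05, against 6.33% of all genes. Most of that sum is ENO3 (24.9 CPM in CDK4KO, 26.1 CPM in CDK4WT), whereas ACTA1, skeletal actin, averaged 5.42 CPM in CDK4KO and 12.6 CPM in CDK4WT (-1.21 ± 0.41) and DES, desmin, 1.02 CPM in CDK4KO and 2.57 CPM in CDK4WT (-1.33 ± 0.36). The muscle sum was highest in CDK4WT replicate 1, which was the lowest CDK4WT library in 22 of the 34 members. Of 13 leukocyte markers 5 were measured (20.3 to 21.2 CPM in CDK4KO, 16.1 to 28.3 CPM in CDK4WT), and of 9 fibroblast and pericyte markers 6 (707 to 1223 CPM in CDK4KO, 802 to 1220 CPM in CDK4WT). Of 6 adipocyte markers 2 were measured (2.53 to 3.64 CPM in CDK4KO, 2.95 to 9.65 CPM in CDK4WT), both lower at an unadjusted p of 0.05, as 6.33% of all genes were. PLIN1 averaged 0.957 CPM in CDK4KO and 1.80 CPM in CDK4WT (-0.91 ± 0.29), and LPL 1.97 CPM in CDK4KO and 5.06 CPM in CDK4WT (-1.36 ± 0.42). Both log2 fold changes lay below that of any of the 34 members. Every gene counted here exceeds 1 CPM in at least 4 libraries. PLIN1 and DES did so in all CDK4WT libraries but not in all CDK4KO libraries, so their inclusion can favour lower CDK4KO values. The adipocyte sum was lowest among CDK4WT libraries in replicate 4, the library highest of all 8 in 21 members. Of 5 erythroid markers 0 were measured. Those not measured, CDH5, CD68, DCN, CKM and ADIPOQ among them, were not analysed here. The part of other cells in the result was not tested, and in whole tumours fewer cells of a type and less RNA per cell cannot be told apart.

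Promoter windows were read for the core that HIF binds, ACGTG or GCGTG on either strand. Each window is the 250 bases before 1 RefSeq start per gene (GRCh38.p14, 32 members matched). Other starts of a gene, where it has them, were not read, and some windows lie inside the GENCODE gene model, as for TIGAR. ACGTG was found in 3 of the 7 matched members that separated completely, in 10 of the other 25, and in 18.7% of all 27305 promoters. GCGTG was found in 3 of 7, 9 of 25 and 31.9%. A match of letters is a description and not a bound site, and either motif was found in 71.4% of the 7 separated members, 56.0% of the other 25 and 43.1% of all promoters. For ACGTG alone the shares were 42.9% in the separated members and 40.0% in the others. The sequences shown are the stretches of 4 windows that lie outside annotated exons, chosen after the values were seen as 2 genes with lower values and a match (PFKFB3 and PGK1), 1 separated gene with no match in the window (PDK1) and 1 gene that overlapped and has a match (GAPDH). They are written 5′ to 3′ on the gene's strand, all of them the plus strand, with every match in capitals on whichever strand it reads (CACGT and CACGC are ACGTG and GCGTG on the opposite strand, and CACGTG reads as ACGTG on both).
PFKFB3 (chr10:6144671-6144920): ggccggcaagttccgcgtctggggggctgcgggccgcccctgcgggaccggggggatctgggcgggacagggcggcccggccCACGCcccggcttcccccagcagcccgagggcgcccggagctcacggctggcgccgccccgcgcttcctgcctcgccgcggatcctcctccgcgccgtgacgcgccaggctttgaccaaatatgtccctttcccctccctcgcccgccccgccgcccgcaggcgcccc
PGK1 (chrX:78103998-78104173): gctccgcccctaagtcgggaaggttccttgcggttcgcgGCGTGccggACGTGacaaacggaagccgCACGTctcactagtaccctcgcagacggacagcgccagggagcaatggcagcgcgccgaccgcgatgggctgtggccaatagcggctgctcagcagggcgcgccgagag
PDK1 (chr2:172555123-172555372): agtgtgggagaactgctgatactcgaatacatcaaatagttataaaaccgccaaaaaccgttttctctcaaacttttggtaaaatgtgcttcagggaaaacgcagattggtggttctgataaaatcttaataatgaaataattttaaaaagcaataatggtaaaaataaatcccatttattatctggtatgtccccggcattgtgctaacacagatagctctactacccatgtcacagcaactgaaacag
GAPDH (chr12:6535142-6535263): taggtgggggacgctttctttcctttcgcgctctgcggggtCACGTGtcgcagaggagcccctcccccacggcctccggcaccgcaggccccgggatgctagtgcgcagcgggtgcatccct
The PGK1 stretch holds 2 ACGTG and 1 GCGTG, the PFKFB3 stretch 1 GCGTG, and the GAPDH stretch 1 palindrome that counts on both strands. PFKFB3 and PGK1 stood at -0.76 and -0.52 on the log2 scale and GAPDH at 0.07, while PDK1, without these letters in its window, stood at -0.50.

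Gene models are those of GENCODE 29 on hg38, all protein-coding. HK2 (ENSG00000159399) lies on chromosome 2 from 74833981 to 74893359 and PDK1 (ENSG00000152256) on the same chromosome from 172555373 to 172608669. PFKFB3 (ENSG00000170525) and PFKP (ENSG00000067057) are both on chromosome 10, PFKFB3 at 6144934 to 6254644 and PFKP at 3066333 to 3137712. PFKFB4 (ENSG00000114268) lies on chromosome 3 from 48517684 to 48562015 and PFKFB2 (ENSG00000123836) on chromosome 1 from 207034366 to 207081024. PGK1 (ENSG00000102144) lies on chromosome X from 77910739 to 78129296, ALDOA (ENSG00000149925) on chromosome 16 from 30064164 to 30070457, and SLC2A1 (ENSG00000117394) on chromosome 1 from 42925375 to 42959176. ENO2 (ENSG00000111674), GAPDH (ENSG00000111640) and TIGAR (ENSG00000078237) lie on the short arm of chromosome 12, ENO2 from 6913745 to 6923698, GAPDH from 6533927 to 6538374 and TIGAR from 4307763 to 4354593. The neighbours of GAPDH and ENO2 had medians of 0.09 and 0.02, and those of PFKFB3, PFKFB4, PDK1 and SLC2A1 between -0.06 and 0.03. HK2's 20 neighbours had a median of -0.14, of which 19 were negative, against its own -0.65.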

How the data were processed

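Tumour RNA (8 samples) went into mRNA library preparation, as the labels' protocols state. A single table of raw read counts by Ensembl gene, not normalized, was deposited by the authors. Per the submitters' processing notes, cutadapt, STAR 2.7.11a, featureCounts 2.0.4, DESeq2 1.46.0 and hg38 were used. No source used here gives the annotation release, the strand setting or what was done with mouse reads, so conserved mouse reads may be among the counts. Every gene in the table exceeds 1 CPM in at least 4 libraries, and edgeR's filter removed 0 genes. Column numbers 5 to 8 of the CDK4KO libraries were matched through the library names.

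The comparison of CDK4KO with CDK4WT used edgeR 4.0.16 under R 4.3.3 (TMM, filterByExpr, robust quasi-likelihood test, Benjamini-Hochberg over 13546 genes, threshold 0.05). Standard errors are those implied by the F statistic, and intervals are 95%. Log2 CPM used a prior count of 2. Symbols were found for 13524 genes. Neighbours are up to 10 measured genes per side. DESeq2 1.42.0, limma 3.58.1 voom, other scalings and filters, a replicate block and left-out libraries were alternatives. The closest pair of libraries differed by a chi-square of 6.97 per gene, so all 8 were counted as separate. All members are named by rule, and other genes of glucose metabolism and the hypoxia response by the smallest p of their list. Cell type markers were named by choice from their lists and not by p. Members and lists were chosen with earlier results of these data known. The common coefficient of variation between libraries beyond counting was 11.7%.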

Additional observations from a re-analysis of the deposited data

Results flagged for a closer look

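Single libraries lay far from the other 3 of their group, by Dixon's ratio at its 95% critical value, in 4 of 92 groups of values, and chance flags about 1 in 20. PFKL was 277 CPM in CDK4KO replicate 1, against 183 to 195 CPM in the other CDK4KO libraries, and the log2 ratio of PFKP over PFKL was accordingly low there, at -0.14 against 0.40 to 0.50. LDHB was 6.02 CPM in CDK4KO replicate 3, against 8.15 to 8.24 CPM in the others. GYS1 was 79.7 CPM in CDK4WT replicate 4, against 63.8 to 65.6 CPM in the other CDK4WT libraries.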

How the results depend on the processing

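The count of members lower at an unadjusted p of 0.05 (15) was 13 to 22 when 1 library was left out, and 13 of these 15 members passed in all 8 such fits; HK1 and LDHA did not. The median of the members (-0.17) ranged from -0.25 to -0.14 over these fits. The count of members past the adjusted test (0) was 0 to 5 over these fits, 3 without CDK4KO replicates 1 and 4 together, 2 with library size only, 9 by DESeq2 and 5 by limma voom. Members wholly below CDK4WT (8) were 8 to 18 without 1 library and 19 without CDK4KO replicates 1 and 4. Over all genes the adjusted calls (8) were 0 to 183 without 1 library, 447 without CDK4KO replicates 1 and 4, 14 with library size only, 315 by DESeq2 and 285 by limma voom. With the replicate number as a block, 13 genes and 0 members passed. The deviations of same-numbered libraries of the 2 genotypes correlated at -0.03 to 0.19, and those of differently numbered ones at -0.20 to 0.20. Whether the numbers pair the libraries is not given in the sources used here, and these correlations cannot decide it. Within replicate numbers the isoform test cannot go below 0.125, and with 3 against 4 libraries not below 0.0571, so there only differences were compared: PFKFB4 over PFKFB3 moved to -0.21 without CDK4KO replicates 1 and 4.

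Over the fits without 1 library, 8 members near 0 took both signs: PFKM (-0.074 to 0.018), TPI1 (-0.038 to 0.10), BPGM (-0.079 to 0.073), PKM (-0.14 to 0.011), LDHB (-0.078 to 0.069), PDK3 (-0.022 to 0.15), GYS1 (-0.077 to 0.066) and GBE1 (-0.11 to 0.013). Without CDK4KO replicates 1 and 4, GAPDH was -0.011 and BPGM 0.11, and BPGM was 0.10 by limma voom. Causes were not tested.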
